A study of Homo sapiens with 6 samples.

Results

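The 7 genes described here, POLK, ATR, ATM, CHEK1, CHEK2, BRCA1 and FANCA, belong to the cellular response to DNA damage. Their splice junctions were taken by position, as every junction with both ends inside the span of the gene on its strand in the hg19 build. This gave 731 of the 780566 junctions listed in the 6 libraries, of which 325 were annotated and 406 were unannotated. POLK held 71 junctions, ATR 104, ATM 173, CHEK1 48, CHEK2 63, BRCA1 94 and FANCA 178. The libraries were poly(A)+ RNA of K562 cells, a human leukaemia line with erythroid features. In 3 libraries the cells carried a wild-type U2AF1 knock-in, called WT below, and in 3 they carried U2AF1 S34F. U2AF1 helps to define the 3′ end of introns by binding their terminal AG, and S34F changes a residue in one of its zinc fingers. Both groups share the K562 background, and the labels name neither a treatment nor the number of clones. They also do not say whether replicates came from separate cultures, so p-values measure only the spread between these libraries. The junction tables hold no base calls, so the U2AF1 genotype of a library was taken from its label.

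The gene set was drawn up with results of these libraries known, and POLK and ATR, which lead it, are treated as selected on their junction reads in S34F against WT. Their values are therefore given as a description with no test. SE bars and ranges with a library left out, where shown for them, describe these libraries and take no account of that selection. For the other 5 genes the adjusted p-values come from fits over all events of the series.

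Cells answer DNA damage through sensor kinases, effector kinases and repair enzymes. ATR is activated by single-stranded DNA at stalled replication forks and acts mainly through CHEK1, whereas ATM is activated by double-strand breaks and acts mainly through CHEK2. BRCA1 acts in homologous recombination, FANCA is a subunit of the Fanconi anaemia core complex that starts the repair of DNA crosslinks, and POLK is a translesion polymerase that copies past damaged bases. A skipped exon whose length is not a multiple of 3 shifts the reading frame when it lies in coding sequence. Coding sequence could not be placed here, because an annotation of hg19 was not used.

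Unique spliced reads ranged from 18074706 to 39279169 per library, and 9170 to 20600 of them fell in the 7 genes. Junctions of the K562 genes HBG1 and HBG2 carried 1262 to 3584 reads per 1000000 unique spliced reads, TFRC 883 to 1249 and GATA1 92.1 to 144. Markers of other cells were low, with CD3E from 0 to 2.28 and ALB from 0 to 0.170. The embryonic globin HBE1 ranged from 43.4 to 89.8 in the WT libraries and from 142 to 1275 in the S34F libraries, which did not overlap, and its part in the results below was not tested. WT replicate 1 correlated more closely with S34F replicate 2 (r = 0.942, across junctions) than with the other WT libraries (0.935 and 0.933). S34F replicate 3, the deepest library, had the lowest correlations with the WT libraries (0.905 to 0.909).

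The spliced reads of each gene were summed over its annotated junctions and divided by the unique spliced reads of the library. POLK carried 23.0, 30.8 and 34.2 reads per 1000000 in the WT libraries and 22.6, 21.1 and 18.5 in the S34F libraries. All 3 S34F values lay below all 3 WT values, although WT replicate 1 and S34F replicate 1 were close to each other. The means were 29.3 ± 5.7 (SD, n = 3) and 20.7 ± 2.1 (SD, n = 3), a 1.40-fold higher level in WT. ATR carried 38.3, 57.0 and 47.0 in WT and 32.7, 31.0 and 35.4 in S34F. Its groups did not overlap either, with means of 47.4 ± 9.3 and 33.0 ± 2.2 (SD, n = 3 each) and a 1.42-fold higher level in WT. With each library left out in turn, the log2 change ran from -0.65 to -0.37 for POLK and from -0.65 to -0.36 for ATR. In bulk libraries, fewer cells that transcribe a gene and less RNA per cell cannot be told apart.

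ATM, the kinase of the double-strand break branch, carried 118, 109 and 94.0 reads per 1000000 in WT and 114, 87.2 and 65.2 in S34F. The groups overlapped through S34F replicate 1, and the means of 107 ± 12 and 88.8 ± 24.4 (SD, n = 3 each) did not differ beyond the spread (two-sided exact permutation test, p = 0.3, where 3 against 3 libraries allow no p below 0.1). CHEK1 had means of 104 ± 12 and 100.5 ± 9.1, and CHEK2 had 43.8 ± 4.1 and 38.9 ± 4.1 (SD, n = 3 each). Their groups overlapped, with exact permutation p-values of 0.7 for CHEK1 and 0.3 for CHEK2. BRCA1 had means of 70.1 ± 9.9 in WT and 74.5 ± 9.4 in S34F, and FANCA had 129 ± 15 and 142 ± 23 (SD, n = 3 each). Neither differed beyond the spread (exact permutation p = 0.6 and 0.5).

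**Figure D1:**
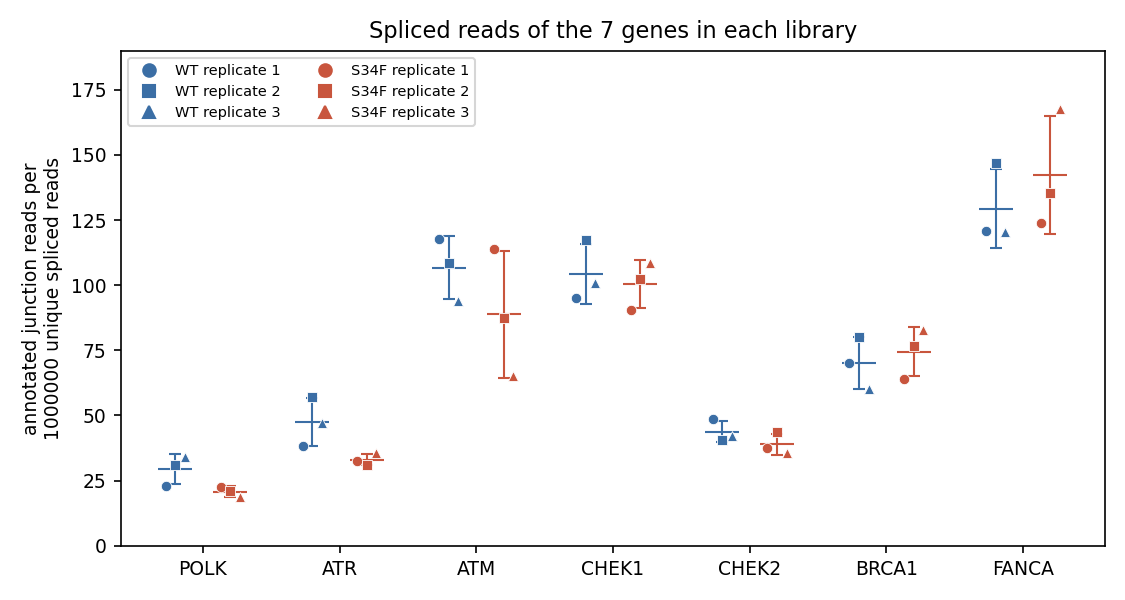
Annotated junction reads per 1000000 unique spliced reads for each of the 7 genes (vertical axis), with a point per library, a horizontal line for the group mean and a bar for the SD (WT blue, S34F red, n = 3 each). POLK and ATR are the genes in which the 3 S34F points lie below the 3 WT points, and the points of the other 5 genes overlap.

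Genes differ in their number of introns, so levels between genes were compared as the median reads per junction along the most-read chain of introns. On this scale CHEK1 was highest in WT, with 8.52 ± 1.35 reads per 1000000 per junction (SD, n = 3). BRCA1 (3.02 ± 0.48), FANCA (2.84 ± 0.36) and CHEK2 (2.75 ± 0.17) followed and did not differ beyond their spread. POLK had 2.09 ± 0.52 and ATM 1.67 ± 0.25, where the ATM mean lay within the POLK spread but the POLK mean lay above the ATM spread. Unlike the summed reads, the POLK groups overlapped on this scale, with 1.49, 2.31 and 2.48 in WT against 1.68, 1.36 and 1.44 in S34F. ATR was lowest, with 0.786, 1.16 and 0.929 in WT against 0.682, 0.609 and 0.662 in S34F. This lowest-ranked gene thus had the fewest reads behind each junction, and its libraries again did not overlap between groups.

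The junctions of each gene were then fitted individually, over 113836 annotated junctions with a mean of at least 10 reads, and 233 of them lay in the 7 genes. The median log2 change of all junctions, S34F over WT, was 0.012, and 48.7% of all junctions had a change below 0. In POLK 14 of 15 junctions had a change below 0, with a median of -0.58. In ATR it was 46 of 47, with a median of -0.62, and in ATM 58 of 63, with a median of -0.34. The changes of these 3 genes were spread over their length. The median over the 5′ introns and over the 3′ introns of the chain was -0.63 and -0.38 in POLK, -0.57 and -0.70 in ATR, and -0.38 and -0.28 in ATM. CHEK1 had 11 of 16 junctions below 0 (median -0.07), CHEK2 10 of 15 (-0.14), BRCA1 13 of 27 (0.02) and FANCA 13 of 50 (0.14). At 6 of the 63 ATM junctions and 5 of the 15 CHEK2 junctions, all S34F libraries lay below all WT libraries in reads per 1000000. CHEK1 had 3 such junctions, FANCA 1 and BRCA1 0, where 8.65% of all junctions were such. POLK and ATR, selected on these reads, had 6 of 15 and 16 of 47. Their counts are a description, and the shares over all junctions are no test of them. Junctions of a gene share its level in the same 6 libraries, so they are not separate observations. The edgeR quasi-likelihood test called 0 of the 171 junctions of ATM, CHEK1, CHEK2, BRCA1 and FANCA at an adjusted p under 0.05, where 0.134% of all junctions were called, and 13 of them had an unadjusted p under 0.05 (13.7% of all junctions).

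**Figure D2:**
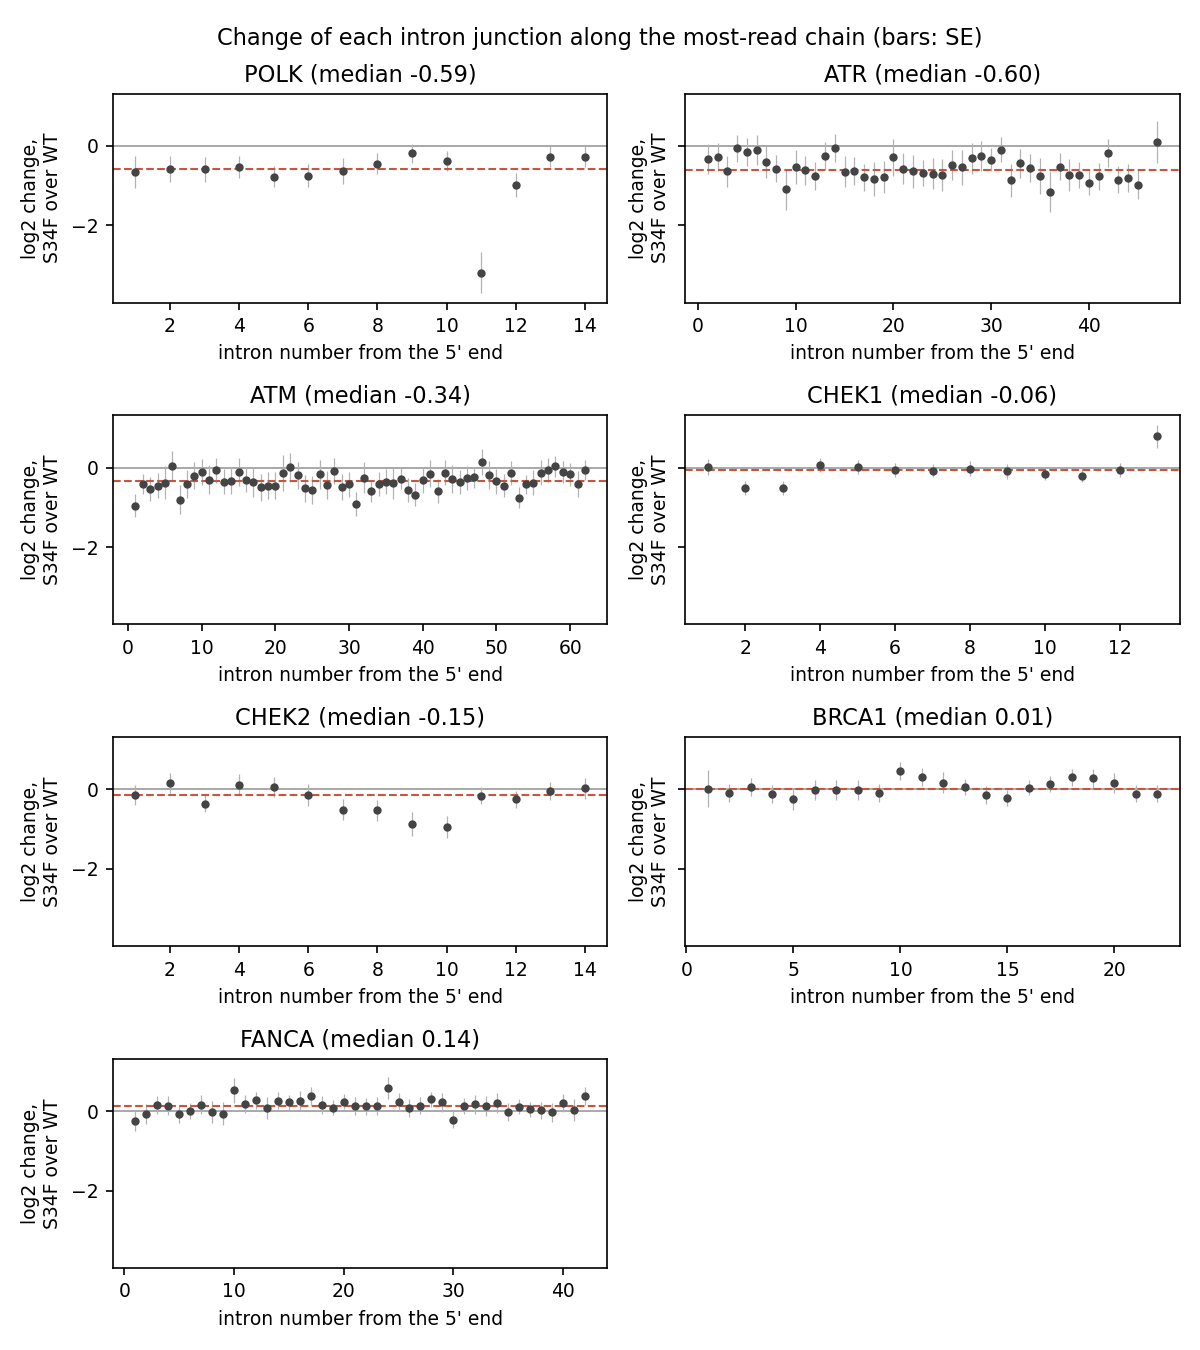
Log2 change of each intron junction, S34F over WT (vertical axis, with SE bars), against intron number from the 5′ end along the most-read chain (horizontal axis), 1 panel per gene, with the gene's median as a dashed line. POLK, ATR and ATM lie below 0 along most of their length, and the POLK panel shows a single point at -3.19, at intron 11.

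Choices between splice sites were measured as shares, in which the level of the gene cancels. Acceptor usage is the share of a junction among all reads that leave the same 5′ splice site, and donor usage is its share among all reads that enter the same 3′ splice site. Inclusion of a cassette exon, an exon that is either kept or skipped, is the mean of its 2 flanking junctions as a share of that mean and the skipping junction added together. Calls required an adjusted p under 0.05 and a difference of at least 10 percentage points. With at least 20 reads in every library, the 7 genes held 82 acceptor events, 82 donor events and 32 cassette exons. POLK had 10, 9 and 4 of these, and ATR had 2 donor events. A cassette exon is counted once for each form and skipping junction, so some of them share reads. In the 5 other genes, 4 of 72 acceptor events were called (2.11% of all events), 3 of 71 donor events (0.934%) and 3 of 28 cassette exons (2.74%). The called cassette exons were 1 with higher inclusion in S34F (1.03% of all exons) and 2 with lower inclusion (1.71%). They came from 3 exons, in ATM, CHEK1 and CHEK2, since a skipped exon also appears in acceptor and donor usage. These counts depended on single libraries, and so did the calls over all events. Acceptor calls numbered 10 without WT replicate 1, where 1932 of all 46510 events were called. They numbered 2 without WT replicate 3 or S34F replicate 1 (634 of 48794 and 484 of 47209). Without S34F replicate 2 or 3 they numbered 0 (337 of 49886 and 77 of 41558). Donor calls numbered 3 without WT replicate 1 (1210 of 43726). They numbered 0 when any other library was left out, where 4 to 189 events of the series were called. Cassette calls numbered 1 without WT replicate 3 or S34F replicate 1 (325 of 17968 and 116 of 17214). Without S34F replicate 2 or 3 they numbered 0 (73 of 18257 and 0 of 14725). Of the 7 competing pairs of acceptors at most 100 nt apart, 0 were called (2.85% of all pairs), with 2 at an unadjusted p under 0.05 by edgeR (17.3% of all pairs). No shared direction was seen, since the ATM exon was included more in S34F and the CHEK1 and CHEK2 exons were included less.

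POLK, the translesion polymerase, had the largest difference of acceptor usage in the set, at intron 11 of 14. Reads leaving the 5′ splice site at chr5:74886266 joined the acceptor that ends the intron at 74889702 in 19 of 45, 21 of 38 and 16 of 28 cases in the WT libraries. In the S34F libraries they did so in 1 of 33, 2 of 22 and 4 of 42. The groups did not overlap, and the share was 51.5% ± 8.1 in WT and 7.2% ± 3.6 in S34F (SD, n = 3 each). The change in log2 odds was -3.67, and ran from -4.05 to -3.27 when each library was left out in turn. The same site could instead join an acceptor 88 nt further on, at 74889790, which shortens the exon from 172 nt to 84 nt. That junction had 5, 4 and 5 reads in WT and 10, 3 and 10 in S34F, so its share overlapped between groups (13.2% ± 4.1 and 22.6% ± 8.4, SD, n = 3 each). The junction that skips the exon altogether, to 74892046, had 17, 13 and 6 reads in WT and 19, 15 and 22 in S34F, or 31.1% ± 8.6 and 59.4% ± 8.1 of the reads from the site (SD, n = 3 each). The 172 nt form (chr5:74889703-74889874) and the 84 nt form share their downstream junction, 74889875-74892046, which had 35, 46 and 49 reads in WT and 21, 20 and 37 in S34F. Inclusion computed from both flanks of the 172 nt exon, 72.6% ± 11.5 in WT and 42.4% ± 5.8 in S34F (SD, n = 3 each), therefore also counts reads of the 84 nt form, unlike the acceptor share above. Neither 172 nor 97, the length of the exon before it, is a multiple of 3.

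**Figure D3:**
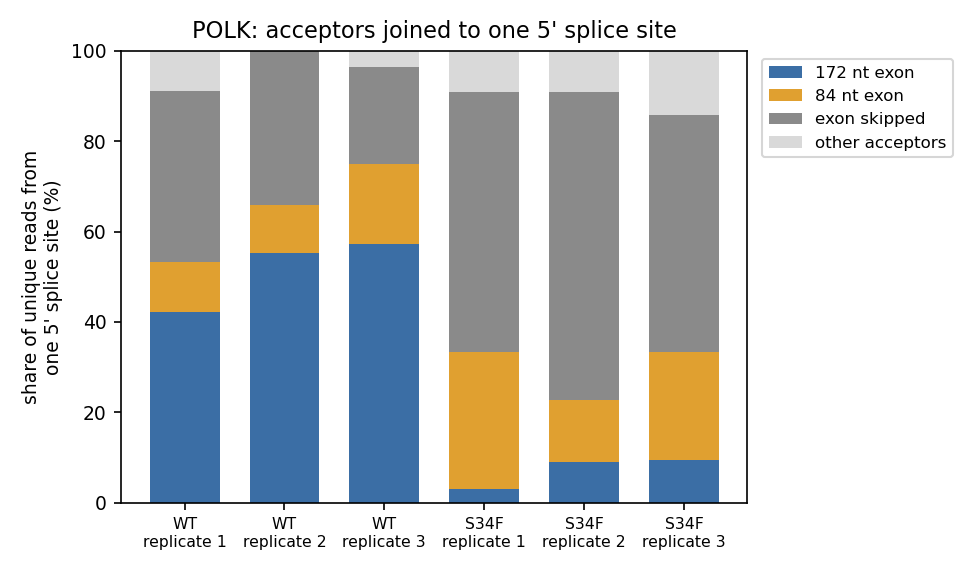
Share of the unique reads that leave the 5′ splice site at intron 11 of POLK by the acceptor they join (vertical axis, percent), stacked for each of the 6 libraries. The acceptor of the 172 nt exon takes 51.5% on average in the WT libraries and 7.2% in the S34F libraries, and the skipping junction takes 31.1% and 59.4%.

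The neighbouring 97 nt exon of POLK (chr5:74886169-74886265) was skipped together with the 172 nt exon by an unannotated junction, 74882884-74892046. It had 0 reads in each WT library and 2, 5 and 7 reads in the S34F libraries, out of 43, 40 and 71 reads from its 5′ splice site. Further upstream, an unannotated 42 nt exon (chr5:74876381-74876422) was joined from intron 6 by 3, 3 and 2 reads in WT and 6, 6 and 8 in S34F. The downstream junction of this exon had 0, 5 and 2 reads in WT and 7, 2 and 2 in S34F, which overlapped. Its inclusion was 4.9% ± 1.5 in WT and 14.9% ± 5.7 in S34F (SD, n = 3 each). The groups did not overlap in inclusion, but WT replicate 2 (6.7%) and S34F replicate 3 (8.3%) were close. Unannotated junctions took 4.41%, 2.54% and 1.63% of the POLK reads in the WT libraries and 6.03%, 7.30% and 8.21% in the S34F libraries, from 11 to 65 reads per library. Over all junctions of the series the same share was 1.14% ± 0.11 in WT and 1.31% ± 0.07 in S34F (SD, n = 3 each). The POLK introns after the skipped exons, 13 and 14, had log2 changes of -0.28 and -0.28. Those before them ran from -0.78 at intron 5 to -0.19 at intron 9, with -0.66 at intron 1 and -0.38 at intron 10.

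In ATR, the kinase of the replication stress branch, a 137 nt exon between introns 46 and 47 of 47 (chr3:142169308-142169444) varied most. Its upstream junction had 4, 10 and 3 reads in WT and 10, 13 and 14 in S34F, and its downstream junction had 5, 26 and 21 against 15, 19 and 31. The junction that skips it, 142168445-142171969, had 22, 33 and 18 reads in WT and 5, 5 and 30 in S34F. S34F replicates 1 and 2 were the low libraries for skipping, and S34F replicate 3 resembled WT. Inclusion was 30.8% ± 12.2 in WT and 63.5% ± 18 in S34F (SD, n = 3 each), on fewer than 20 reads in S34F replicate 1. Among reads that enter the 3′ splice site at 142168445, the skipping junction took 61.2% ± 18.2 in WT and 31.7% ± 15.3 in S34F (SD, n = 3 each), and the groups overlapped. Its change in log2 odds was -1.42, and -2.29 without S34F replicate 3. The most reduced junctions of the chain were intron 36 (9, 31 and 21 reads in WT; 6, 10 and 16 in S34F) and intron 9 (8, 24 and 13; 10, 5 and 9), whose groups overlapped per 1000000 reads. Unannotated junctions took 1.52%, 1.25% and 1.52% of the ATR reads in WT and 2.29%, 3.78% and 1.97% in S34F, on 14 to 28 reads per library.

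In ATM an 88 nt exon inside intron 1 of 62 (chr11:108095511-108095598) rose in S34F. Its upstream junction had 1, 6 and 1 reads in WT and 14, 7 and 8 in S34F, and its downstream junction had 12, 9 and 3 reads in WT and 19, 17 and 21 in S34F. The junction that skips it, 108093914-108098321, had 44, 44 and 37 reads in WT and 29, 16 and 29 in S34F. The groups did not overlap, and inclusion went from 10.9% ± 5.0 to 37.5% ± 4.9 (SD, n = 3 each), higher in 3 of 3 S34F libraries. The flanks were unequal, with more reads downstream than upstream in every library, so the averaged inclusion is uncertain as a level. The log2 odds of inclusion rose by 2.14 ± 0.51 (SE), with an adjusted p of 0.0233 by edgeR's quasi-likelihood test. The exon was called in acceptor usage too, at 2.55 ± 0.69 (SE, adjusted p = 0.0325) for the joining junction and -2.14 ± 0.59 (SE, adjusted p = 0.0363) for the skipping one. Donor usage of its downstream junction changed by 2.10 ± 0.54 (SE, adjusted p = 0.0378). Of 13 alternatives each, these calls were lost in 8, 9 and 9, with edgeR, DESeq2 or limma adjusted p-values of up to 0.145, 0.254 and 0.172. All 3 were lost without WT replicate 3 and without any S34F library, and those of the skipping and downstream junctions also without WT replicate 2 (edgeR adjusted p = 0.0512 and 0.108). The call on inclusion was lost when WT replicate 3 (adjusted p = 0.0537) or S34F replicate 1, 2 or 3 (0.0731, 0.0914 and 0.110) was left out, and with limma on log2 odds (0.0824). With limma and without S34F replicate 3, 0 cassette exons of the whole series were called, so these settings do not single out this exon. Over the alternatives its log2 odds ran from 1.80 to 2.42. The length of 88 nt is not a multiple of 3, and the exon lies at the 5′ end of the gene. Elsewhere in ATM few splice sites had an alternative with enough reads, and the gene held 3 acceptor events, 2 donor events and 1 cassette exon in all.

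**Figure D4:**
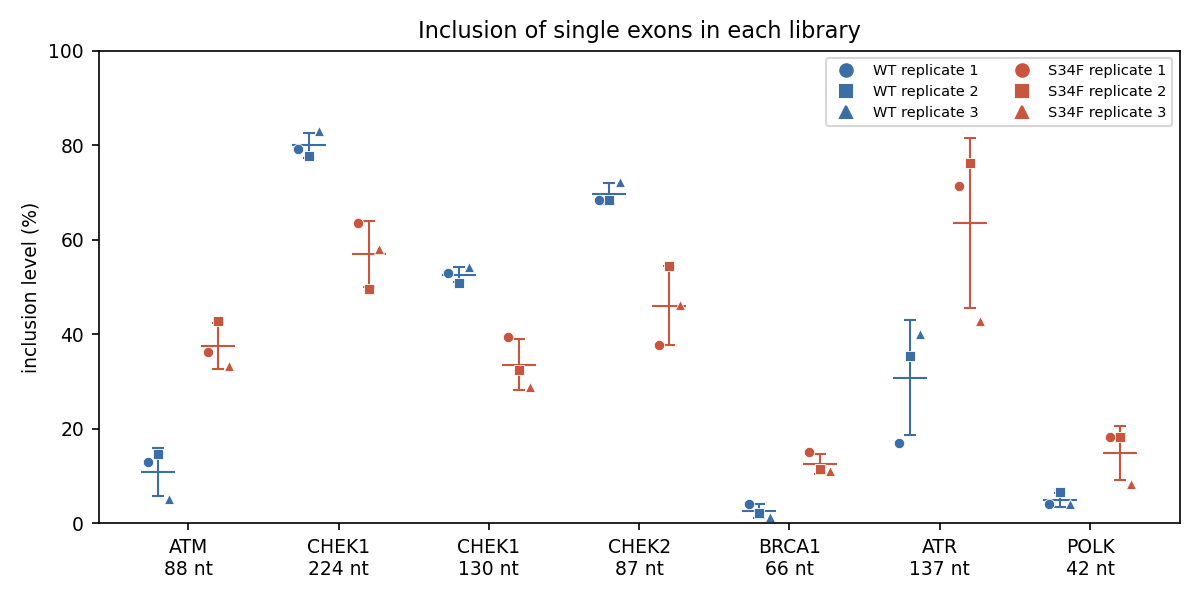
Inclusion level of 7 exons (vertical axis, percent; gene and exon length on the horizontal axis), with a point per library, a line for the group mean and a bar for the SD (n = 3 each). The 88 nt exon of ATM, the 66 nt exon of BRCA1, the 137 nt exon of ATR and the 42 nt exon of POLK have higher means in S34F, and the CHEK1 and CHEK2 exons have lower means, while other exons of POLK and BRCA1, not plotted, have lower means; edgeR called the 88 nt, 224 nt and 87 nt exons of ATM, CHEK1 and CHEK2, and no test is given for ATR and POLK.

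CHEK1, the effector kinase that slows replication and blocks entry into mitosis, had a 224 nt exon between introns 2 and 3 of 13 (chr11:125497502-125497725) that fell in S34F. Its upstream junction had 153, 177 and 142 reads in WT and 107, 82 and 214 in S34F. The skipping junction, 125496729-125499126, had 38, 52 and 27 reads in WT and 61, 77 and 151 in S34F. Inclusion was 79.9% ± 2.7 in WT and 57.1% ± 7.0 in S34F (SD, n = 3 each), lower in 3 of 3 S34F libraries. The log2 odds of inclusion fell by 1.57 ± 0.35 (SE), with an adjusted p of 0.0197 by edgeR. Both acceptor events of the site were called (adjusted p = 0.0151 and 0.0154 by edgeR), and so were both donor events (0.0315 and 0.0332). Of 14 alternatives each, the acceptor calls were lost in 5 and 5 and the donor calls in 8 and 9. Leaving out S34F replicate 2 or 3 ended the acceptor calls (edgeR adjusted p from 0.0918 to 0.103), and leaving out any library but WT replicate 1 ended the donor calls. The call on inclusion was lost without S34F replicate 2 (adjusted p = 0.0949) or S34F replicate 3 (0.119), with limma on log2 odds (0.107), and with the replicate number as a block (0.0534). Neither limma nor the fit without S34F replicate 3 called any cassette exon of the series. The skipping junction itself had a log2 change of 1.08 ± 0.27 (SE), which did not pass at the level of junctions (adjusted p = 0.126).

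A 130 nt exon in the last intron of CHEK1 (chr11:125526101-125526230) had inclusion of 52.6% ± 1.7 in WT and 33.6% ± 5.4 in S34F (SD, n = 3 each). Its skipping junction had 37, 29 and 22 reads in WT and 36, 48 and 95 in S34F, and the groups did not overlap in inclusion. Its flanks were unequal in some libraries, with 54 reads upstream and 29 downstream in WT replicate 1 and 52 and 25 in S34F replicate 3. The exon missed the threshold, with -1.16 ± 0.38 in log2 odds (SE, edgeR adjusted p = 0.0719). By contrast a 96 nt exon between introns 7 and 8, skipped by an unannotated junction with 8, 7 and 18 reads in WT and 10, 12 and 10 in S34F, had inclusion of 94.1% ± 4.6 and 94.8% ± 2.3 (SD, n = 3 each). The lengths 224 and 130 are not multiples of 3, and 96 is.

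CHEK2, the effector kinase downstream of ATM, had an 87 nt exon between introns 9 and 10 of 14 (chr22:29092889-29092975) that fell in S34F. Its upstream junction had 56, 52 and 53 reads in WT and 22, 33 and 46 in S34F, and its downstream junction had 70, 52 and 46 against 24, 29 and 48. The skipping junction, 29091862-29095825, had 29, 24 and 19 reads in WT and 38, 26 and 55 in S34F. Inclusion was 69.7% ± 2.2 in WT and 46.1% ± 8.3 in S34F (SD, n = 3 each), lower in 3 of 3 S34F libraries. Its log2 odds fell by 1.43 ± 0.38 (SE), and edgeR gave an adjusted p of 0.0367. The call was lost without WT replicate 2 (adjusted p = 0.0830), WT replicate 3 (0.0693) or S34F replicate 1, 2 or 3 (0.130, 0.0794 and 0.158), with DESeq2 (0.0774), with limma (0.127), with the replicate number as a block (0.0900) and without the filter on low counts (0.112). As for CHEK1, limma and the fit without S34F replicate 3 called no cassette exon of the series. The matching acceptor and donor events differed by 23.0 and -24.1 percentage points and missed the threshold (edgeR adjusted p = 0.0602 and 0.0645). Removal of 87 nt, a multiple of 3, keeps the reading frame when the exon is coding. CHEK2 has near-identical pseudogene copies, which makes its counts less certain, and 0.676% to 5.05% of its reads per library were multi-mapped.

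Other choices in CHEK2 had values that did not pass. A 62 nt exon between introns 7 and 8 (chr22:29099493-29099554) was skipped by 2, 6 and 3 reads in WT and 2, 8 and 18 in S34F, with inclusion of 94.7% ± 2.6 and 86.1% ± 9.2 (SD, n = 3 each; edgeR adjusted p = 0.140). S34F replicate 3 was lowest and S34F replicate 1 lay within the WT values. At a pair of acceptors 33 nt apart, the minor site at 29091198 had 4, 5 and 1 reads in WT and 0, 0 and 1 in S34F (edgeR adjusted p = 0.101).

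BRCA1, the recombination factor, had 0 called events among 18 acceptor events, 19 donor events and 7 cassette exons. Of all events of these classes 2.11%, 0.934% and 2.74% were called. BRCA1 had 4, 4 and 2 at an unadjusted p under 0.05 by edgeR, where 19.9%, 17.3% and 23.9% of all events of these classes were. Its largest difference concerned the junction 41246878-41251791 on chromosome 17, which skips both the 46 nt exon and the 77 nt exon that follow intron 7 (chr17:41249261-41249306 and chr17:41247863-41247939). This junction took 7 of 70, 12 of 73 and 8 of 40 reads from its 5′ splice site in WT, and 23 of 70, 18 of 55 and 39 of 130 in S34F. Its share was 15.5% ± 5.1 in WT and 31.9% ± 1.6 in S34F (SD, n = 3 each), without overlap. The log2 odds were 1.39 ± 0.47 (SE) higher in S34F, at an adjusted p of 0.0848 by edgeR. Among reads that enter the 3′ splice site after both exons, it took 12.3% ± 3.8 in WT and 26.9% ± 1.5 in S34F (SD, n = 3 each; edgeR adjusted p = 0.0986). Inclusion of the 77 nt exon as a cassette of its own (edgeR adjusted p = 0.0559) is not given as a level, since the junction that would join it directly from upstream was unannotated and had 0 to 3 reads per library. The 46 nt and 77 nt exons together hold 123 nt, a multiple of 3, although neither length alone is.

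A 66 nt exon inside intron 12 of BRCA1 (chr17:41231351-41231416) was joined by 5, 1 and 1 reads in WT and 9, 10 and 17 in S34F. Its downstream junction to the acceptor at 41228632 was unannotated and had 1, 1 and 0 reads in WT and 8, 3 and 8 in S34F. The skipping junction to this acceptor had 70, 44 and 37 against 48, 50 and 101. An annotated downstream junction to the acceptor 3 nt further on, 41228629, had 0, 0 and 0 reads in WT and 1, 1 and 2 in S34F. Skipping to 41228629 had 11, 17 and 23 reads against 15, 6 and 27. Inclusion against the 41228632 acceptor alone was 2.6% ± 1.4 in WT and 12.5% ± 2.2 in S34F (SD, n = 3 each), without overlap. It missed the threshold at 2.08 ± 0.62 in log2 odds (SE, edgeR adjusted p = 0.0541). Against the 41228629 acceptor it was 7.8% ± 9.3 and 33.0% ± 12.9 (SD, n = 3 each), on too few downstream reads for a test. An unannotated junction at 41202208-41203079 had 0 reads in each WT library and 3, 1 and 8 in S34F. All 3 competing acceptor pairs of BRCA1 lay 3 nt apart and had adjusted p-values from 0.632 to 0.963 by edgeR. In the pair behind intron 12 the share of the 41228632 site was 73.4% ± 12.4 and 81.5% ± 6.9 (SD, n = 3 each).

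FANCA, the Fanconi core subunit, had the most junctions and 0 called events among 29 acceptor events, 28 donor events and 12 cassette exons. Of all events of these classes 2.11%, 0.934% and 2.74% were called. In FANCA 7, 2 and 4 had an unadjusted p under 0.05 by edgeR, where 19.9%, 17.3% and 23.9% of all events did. An adjusted p under 0.05 by edgeR was reached by 2 of its acceptor events, with differences under 10 percentage points. A pair of acceptors 23 nt apart at intron 40 of 42 differed between groups but stayed under the minimum of 10 percentage points. The annotated acceptor at chr16:89805698 had 65, 73 and 53 reads in WT and 57, 62 and 147 in S34F. The unannotated acceptor at 89805675, which lies downstream on this minus-strand gene, had 2, 1 and 2 reads in WT and 7, 8 and 22 in S34F. The share of the annotated site was 97.3% ± 1.2 in WT and 88.2% ± 1.1 in S34F (SD, n = 3 each), without overlap. The log2 odds differed by -2.30 ± 0.64 (SE), with an adjusted p of 0.0159 by edgeR, where 6.53% of all pairs had an adjusted p under 0.05 at any difference. The adjusted p rose to 0.110 without WT replicate 2, 0.0817 without S34F replicate 3, 0.0838 with limma, 0.204 with DESeq2 and 0.393 without the filter on low counts.

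A second region of FANCA, around introns 10 and 11, had larger differences that rested on few libraries. A 129 nt exon inside intron 10 (chr16:89865359-89865487) had inclusion of 25.3% ± 13.1 in WT and 10.3% ± 2.7 in S34F (SD, n = 3 each; edgeR adjusted p = 0.104). Its flanks were unequal, with 8, 14 and 26 reads upstream but 7, 1 and 1 downstream in WT. The junction that passes over it, 89862427-89865573, took 39 of 53, 31 of 62 and 20 of 54 reads in WT and 29 of 38, 32 of 43 and 101 of 133 in S34F. Its adjusted p was 0.107 by edgeR, and 0.00731 without WT replicate 1, the library closest to S34F here. The 113 nt exon after this intron (chr16:89862314-89862426) had inclusion of 81.3% ± 8.2 and 92.0% ± 5.2 (SD, n = 3 each; edgeR adjusted p = 0.197). A 156 nt exon inside intron 28 had 18.8% ± 4.1 and 10.7% ± 0.7 (SD, n = 3 each; edgeR adjusted p = 0.161). An unannotated junction that skips a 134 nt exon, 89851373-89858334, had 3, 3 and 2 reads in WT and 3, 6 and 27 in S34F, so S34F replicate 3 alone stood out. Junctions on the opposite strand inside the FANCA span, which carried 3.35 to 9.34 reads per 1000000, were left out.

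Among the 28 cassette exons with enough reads in the 5 genes other than POLK and ATR, 19 had a lower mean inclusion in S34F, where 53% of all cassette exons did so. Some of these are forms of the same exon or differ only in the skipping junction, so their reads are partly counted more than once. Of the 32 such events with POLK included, 13 had an exon length that was a multiple of 3 and 19 had not. Most junctions used the common motif: 719 of the 731 were GT-AG, 12 were GC-AG and 0 were AT-AC. Of the 406 unannotated junctions, 4 had reads in all 3 S34F libraries and in no WT library (1 each in POLK and BRCA1 and 2 in FANCA), and 2 had the opposite pattern. In the whole table these patterns had 3402 and 1298 of 537884 unannotated junctions. On average, unannotated junctions took 7.18% ± 1.09 (SD, n = 3) of the POLK reads in S34F, and from 0.672% in CHEK2 to 2.68% in ATR and BRCA1 in the other 6 genes.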

How the data were processed

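Per the labels' protocols, TruSeq libraries of poly(A)+ RNA from K562 cells were read from both ends on an Illumina instrument. Per the submitters' processing notes, STAR was used with hg19. The STAR version, the annotation and the junction filters are not given in the sources used here. Each deposited table holds 9 columns, among them raw counts of unique and of multi-mapped reads per junction, without normalization visible in the deposited values. The deposited overhang column is a length in nt and was used only as a filter in an alternative.

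The tables were joined on position, with a missing junction counted as 0, and unique counts were used. Events were tested with edgeR 4.0.16 in R 4.3.3 (quasi-likelihood F-test, robust), on 2 counts per library with a term for each library, a term for the type of count and its interaction with S34F, over all events of a class. The SE was derived from the coefficient and its F statistic. Events needed 20 reads in every library and 10 on each side, and only exons of at most 500 nt were taken. Adjusted p-values are Benjamini-Hochberg values within a class. Single junctions were fitted with TMM scaling. Gene totals were compared by two-sided exact permutation tests, since an annotation of hg19 was not used and genes could not be fitted as a whole. The tests were checked on simulated counts. Alternatives used DESeq2 1.42.0, limma 3.58.1, other filters and scalings, a replicate block, and each library left out. Python 3.11.15, pandas 2.3.3, numpy 2.4.6 and matplotlib 3.10.9 were used.

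The genes, lists and tests were chosen with earlier results of these data known. Events named are those called, and in each gene the event with the largest difference per class, plus exons and junctions chosen after their values were seen. Of these, 74889875-74892046 had the largest difference of donor usage in POLK (-26.0 percentage points). In FANCA it was 89858956-89862313 (7.98 percentage points, edgeR adjusted p = 0.354). Other genes of the pathways were not analysed here, and neither were splice site sequences, since no hg19 genome was used. Same-numbered replicates were not treated as pairs: their deviations correlated at -0.18, -0.13 and 0.0033. Reads carry no molecular identifiers, so counts are not independent molecules. A mean share from 20 to 60 reads per library has a wide counting error, which the SD over libraries includes. The values of 1 marker gene are not reported here.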

Additional observations from a re-analysis of the deposited data

Results flagged for a closer look

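A pair of measures outside the comparisons lay above the WT libraries in all 3 S34F libraries, among 14 such measures examined. Junctions on the strand opposite to POLK inside its span had 0.0393, 0 and 0 reads per 1000000 in WT and 0.0852, 0.0553 and 0.0509 in S34F, a difference of means of 0.0507. Each of these values stands for very few reads. Multi-mapped junction reads of BRCA1, which has a pseudogene copy of its 5′ part, had 1.97, 2.05 and 1.81 per 1000000 in WT and 2.13, 4.20 and 2.29 in S34F, a difference of means of 0.936. S34F replicate 2 made up most of that difference. Multi-mapped junction reads of ATM went the other way and lay below the WT libraries in all 3 S34F libraries. They had 1.69, 2.77 and 2.17 per 1000000 in WT and 1.45, 1.22 and 1.45 in S34F. None of these differences was tested.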

How the results depend on the processing

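The counts here are over the 5 genes other than POLK and ATR, for which the main setting called 4 acceptor events, 3 donor events, 0 competing pairs, 3 cassette exons and 0 single junctions. A minimum of 10 reads per library, an alternative chosen after seeing the data, gave 4 acceptor, 3 donor and 3 cassette calls. Acceptor calls were 0 with DESeq2 (19 at an unadjusted p under 0.05), 0 with limma (21), 0 without the filter on low counts (30), 2 with multi-mapped reads added and 2 with at least 50 reads in every library, and ran from 0 to 10 with each library left out. Donor calls were 0 with DESeq2 (11 at an unadjusted p under 0.05), with limma (12) and without the low-count filter (21), and 0 to 3 with each library left out. Competing pairs had 1 call without a minimum difference, and 0 with each library left out. Cassette calls were 0 with limma (8 at an unadjusted p under 0.05) and 0 to 4 with each library left out. Single junctions had 1 call without the low-count filter, where 5134 of all 218590 junctions were called. With the replicate block, cassette calls went to 1 (9 at an unadjusted p under 0.05), against 4 acceptor and 2 donor calls; the same-numbered libraries share only a number. The block ended the calls on the CHEK1 exon (adjusted p = 0.0534, edgeR), the CHEK2 exon (0.0900) and the CHEK1 donor event of the skipping junction (0.0512). Over all events, acceptor calls went from 1088 to 140 with DESeq2, 0 with limma, 77 without S34F replicate 3 and 1932 without WT replicate 1. Donor calls over all events went from 451 to 185 with DESeq2, 0 with limma and 210 without the low-count filter. Cassette calls over all events went from 528 to 271 with DESeq2, 193 with the replicate block and 0 with limma. The 0 calls with limma are therefore not particular to these genes. Shares at an unadjusted p under 0.05 over all events were not counted for the alternatives. With each library left out, the log2 change of the gene total ran from -0.12 to 0.033 in CHEK1, turning to 0.033 and 0.018 without WT replicate 2 and S34F replicate 1, and from -0.017 to 0.19 in BRCA1, turning to -0.017 without WT replicate 3. The CHEK1 acceptor pair ran from -0.11 to 0.85 in log2 odds, turning without WT replicate 1. The other named events and gene totals kept their direction in the alternatives that gave a value. The cause of these changes was not tested, beyond the fewer libraries or events that an alternative holds. Depth limits ATR most, with medians of 11 to 29 reads per junction.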
